A study of Mus musculus with 10 samples.

Results

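The genes described here are 8 lineage and transmitter genes of the sympathoadrenal system, measured in Neuro2a, a mouse neuroblastoma cell line. They are the transcription factors Gata2, Gata3, Phox2a, Hand2 and Insm1, the catecholamine enzymes Th and Dbh, and the granule protein Chga. They were chosen by name, as known neuroblast, chromaffin and catecholamine genes, and found by matching gene identifiers to the GENCODE M21 annotation. Earlier results of these data were known when they were chosen. These 8 genes stand among 55401 gene identifiers in each count file, and all 8 had enough reads to be tested in each comparison.

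The study sequenced RNA from wild-type Neuro2a cells transfected with plasmids in Lipofectamine 2000, to follow gene expression when Scn9a, the gene of the sodium channel NaV1.7, is repressed. The groups were dCas9-empty (3 libraries), dCas9-SCN9A (3 libraries), mCherry (2 libraries) and ZF-SCN9A (2 libraries). dCas9 is a Cas9 protein that binds DNA under the direction of a guide RNA without cutting it, ZF stands for a designed zinc-finger DNA-binding protein, and mCherry is a red fluorescent protein, used here as the control of ZF-SCN9A. Neuro2a is a tumour line of neural crest type and stands in for neither sensory neurons nor normal chromaffin cells. The labels do not say whether replicates came from separate cultures, so the spread between libraries behind the p-values may be technical. In the test of ZF-SCN9A against mCherry, 88.0% of genes took that spread wholly from the spread shared across genes, not from their own libraries.

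Sympathoadrenal cells arise from the neural crest and become sympathetic neurons or the chromaffin cells of the adrenal medulla. A network of transcription factors that includes PHOX2A, HAND2, GATA2, GATA3 and INSM1 drives this step and is kept in many neuroblastomas. The cells it makes synthesise catecholamines: tyrosine hydroxylase (TH) turns tyrosine into L-DOPA, the rate-limiting step, DDC turns L-DOPA into dopamine, and dopamine beta-hydroxylase (DBH) turns dopamine into noradrenaline inside the vesicle. Noradrenaline is stored in dense core granules, whose soluble protein chromogranin A is the product of Chga.

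Summed gene counts were 15.4 to 19.0 M per library (M, 1e6 reads) in both dCas9 groups, and 4.41 to 7.48 M in mCherry and ZF-SCN9A. Scn9a, the targeted gene, lay between 77.7 and 84.5 CPM (counts per M reads assigned to genes, scaled by library) in dCas9-empty and between 29.1 and 31.9 CPM in dCas9-SCN9A. It lay between 53.4 and 59.2 CPM in mCherry and between 14.7 and 17.9 CPM in ZF-SCN9A, so the libraries fell on the side their labels give. Unmapped reads made up 6.997% to 7.36% of listed reads in mCherry and 8.96% to 9.33% in ZF-SCN9A. Reads assigned to the plasmid entries made up 2.04% to 2.09% in mCherry and 2.71% to 2.83% in ZF-SCN9A, and the part of these shifts in the results below was not tested.

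In the annotation of mouse build GRCm38, Gata2 spans chr6:88193891-88207032 on the plus strand and Gata3 chr2:9857078-9890034 on the minus strand. Phox2a spans chr7:101818313-101822726, Hand2 chr8:57320983-57324633 and Insm1 chr2:146221921-146225020, all on the plus strand. Insm1 is a gene of 1 exon. Th spans chr7:142892752-142931128 on the minus strand, Dbh chr2:27165233-27183200 on the plus strand and Chga chr12:102554969-102565028 on the plus strand. Dbh, Gata3 and Insm1 lie on the chromosome of Scn9a but 39.3, 56.6 and 79.6 Mb from it. Exons of Hand2 share 19.6% of their bases with the antisense gene Hand2os1, those of Phox2a share 4.67% with Inppl1 on the other strand, and those of Gata3 share 3.90% with the antisense gene Gm13256.

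The 250 bases before the start sites of Gata2, Hand2, Dbh and Chga are shown, because these genes passed the test in at least 1 comparison. The window of Th, which passed in none, is shown beside them as that of the other catecholamine enzyme among the members. The sequences are RefSeq's for build GRCm38.p6, 5′ to 3′ on the strand of the gene, with the start site just after the last base. Gata2 has 2 start sites in that table. Capitals mark the letters searched for on both strands: AGATAA and TGATAA (bound by GATA factors), TGACG (the short form of the cyclic AMP response element TGACGTCA), TGANTCA (AP-1), GCGNGGGCG (EGR1), GGGCGG (the GC box, which can overlap EGR1 letters) and CATCTG (an E-box bound by HAND2 dimers).
Gata2 first start (chr6:88193641-88193890, plus strand): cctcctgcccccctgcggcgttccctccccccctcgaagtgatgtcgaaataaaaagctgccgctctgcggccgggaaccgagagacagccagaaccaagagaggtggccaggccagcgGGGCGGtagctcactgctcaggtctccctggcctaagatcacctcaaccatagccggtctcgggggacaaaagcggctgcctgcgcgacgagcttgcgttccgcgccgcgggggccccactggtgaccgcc
Gata2 second start (chr6:88198414-88198663, plus strand): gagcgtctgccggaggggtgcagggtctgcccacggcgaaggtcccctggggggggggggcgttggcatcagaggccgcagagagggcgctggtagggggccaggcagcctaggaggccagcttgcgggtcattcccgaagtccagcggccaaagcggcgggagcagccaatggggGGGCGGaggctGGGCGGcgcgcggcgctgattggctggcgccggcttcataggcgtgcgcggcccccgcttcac
Hand2 (chr8:57320733-57320982, plus strand): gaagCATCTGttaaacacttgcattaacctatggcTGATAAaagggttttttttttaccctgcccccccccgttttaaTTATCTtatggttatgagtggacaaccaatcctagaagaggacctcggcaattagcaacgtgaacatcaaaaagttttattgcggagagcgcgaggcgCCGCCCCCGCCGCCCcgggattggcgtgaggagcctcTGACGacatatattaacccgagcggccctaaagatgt
Th (chr7:142899996-142900245, minus strand): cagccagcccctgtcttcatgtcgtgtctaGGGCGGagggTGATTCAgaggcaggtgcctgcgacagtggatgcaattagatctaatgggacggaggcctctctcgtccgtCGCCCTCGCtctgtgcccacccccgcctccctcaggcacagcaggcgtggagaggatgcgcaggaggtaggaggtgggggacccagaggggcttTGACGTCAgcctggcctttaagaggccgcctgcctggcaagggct
Dbh (chr2:27165257-27165506, plus strand): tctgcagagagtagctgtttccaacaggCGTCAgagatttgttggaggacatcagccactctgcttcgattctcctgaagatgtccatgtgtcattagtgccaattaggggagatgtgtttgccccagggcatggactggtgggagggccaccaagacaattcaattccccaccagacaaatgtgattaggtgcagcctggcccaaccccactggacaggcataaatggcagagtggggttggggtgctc
Chga (chr12:102554691-102554940, plus strand): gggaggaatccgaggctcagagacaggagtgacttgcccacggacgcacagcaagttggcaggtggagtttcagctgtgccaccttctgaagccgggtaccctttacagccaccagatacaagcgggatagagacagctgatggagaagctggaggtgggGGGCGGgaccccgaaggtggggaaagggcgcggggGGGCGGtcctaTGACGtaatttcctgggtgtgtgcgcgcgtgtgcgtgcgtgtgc

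RefSeq windows were found for 7 members, all but Insm1. Among these 7, the letters AGATAA (in 9.99% of all 32851 such windows) and TGATAA (in 7.94%) occurred in the window of Hand2, which held both. The whole cyclic AMP response element TGACGTCA, present in 1.55% of windows, occurred in the window of Th, 45 to 38 bases before its start. The short form TGACG, in 17.8% of windows, occurred in Hand2, Th, Dbh and Chga, and in Chga it lay 44 to 40 bases before the start. Letters for EGR1 (4.70% of windows) were in Hand2 and Th, those for AP-1 (6.75%) in Th, and CATCTG (14.4%) in Hand2. GC boxes, in 32.7% of windows, were in every matched member but Dbh. A match is a description of letters and not a measured site, and a missing match says only that these letters are not in the window.

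At baseline the members spanned a wide range of expression. Comparing genes per kilobase of exon, in CPM per kb, Hand2 was the highest in both controls, at a mean of 189.7 (libraries from 183.6 to 193.2) in dCas9-empty and 145.1 (139.8 and 150.3) in mCherry. In dCas9-empty, Phox2a followed at 125.5 CPM per kb, then Chga at 101.9, Gata2 at 51.4, Insm1 at 33.3, Th at 15.8, Dbh at 8.61 and Gata3 at 4.80. In mCherry the order was Hand2, Chga at 91.8 CPM per kb, Phox2a at 79.6, Gata2 at 49.4, Insm1 at 20.7, Th at 7.23, Gata3 at 6.22 and Dbh at 4.86. The library ranges of neighbours in these orders did not overlap within either control. In dCas9-SCN9A they did overlap for Phox2a (108.9 to 127.2 CPM per kb) and Chga (100.3 to 109.3 CPM per kb).

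Hand2, Phox2a, Chga and Gata2 were thus among the stronger genes, and the enzymes and Gata3 were not. Per kb, Hand2 exceeded 98.6% of tested genes in dCas9-empty, Phox2a 97.9%, Chga 97.3% and Gata2 93.9%. Th exceeded 75.1% of tested genes in dCas9-empty and 50.03% in mCherry, and Dbh exceeded 59.7% and 38.3%. Insm1 exceeded 89.1% and 79.7% of tested genes in these controls, and Gata3 exceeded 44.1% and 45.8%. Between the GATA genes the ratio of Gata2 to Gata3, on the per kb scale, was 10.7 in dCas9-empty and 7.95 in mCherry. DDC, the enzyme between TH and DBH, had a transcript at 21.2 CPM in dCas9-empty and 5.81 CPM in mCherry. Pnmt, which turns noradrenaline into adrenaline, had no read in any of the 10 libraries.

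**Figure D1:**
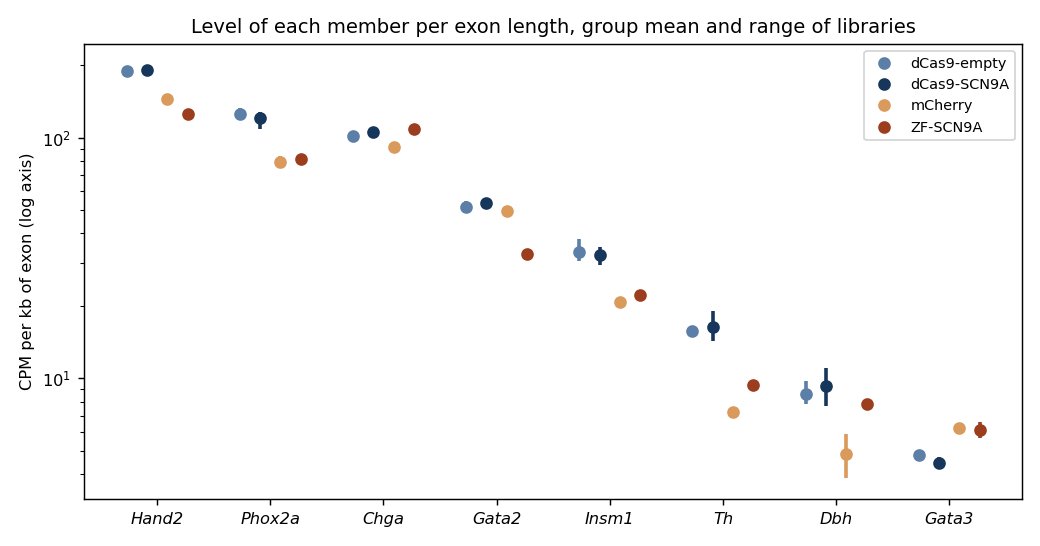
Mean level of each member in CPM per kb of exon on a log axis, with vertical bars for the range of libraries (3, 3, 2 and 2 libraries in the order of the legend). Hand2 was the highest and Gata3 or Dbh the lowest member in each group.

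Both control groups differed in these levels, and no test was made because plasmid and depth cannot be told apart there. Th was 37.3 ± 1.8 CPM (SD, n = 3) in dCas9-empty and 17.1 ± 0.7 CPM (SD, n = 2) in mCherry, and Gata3 was higher in mCherry (24.7 against 19.1 CPM). Each repressor was therefore read only against its own control.

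With dCas9-SCN9A no member passed the test. The members' log2 fold changes against dCas9-empty ran from -0.10 (Gata3) to 0.12 (Dbh), and their 95% intervals together reached from -0.28 to 0.39. Of the 8 members 0 passed an adjusted p of 0.05 by edgeR's quasi-likelihood test, against 0.041% of all 14628 genes tested, and 0 had an unadjusted p under 0.05. DESeq2 and limma-voom also called 0 members, DESeq2 giving no adjusted p for Gata3, Th and Dbh. For none of the 8 did the libraries of both groups separate, while they separated for 16.3% of genes tested. A miss of the threshold does not show that levels were equal, and the intervals give the changes these libraries leave possible.

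With ZF-SCN9A, by contrast, some members moved in each direction against mCherry: Gata2 and Hand2 fell, and Dbh and Chga rose. By the same edgeR test 4 of 8 members passed an adjusted p of 0.05, against 4.72% of the 12899 genes tested. The 2 members that rose compare with 1.95% of genes called higher, and the 2 that fell with 2.78% called lower. The libraries of ZF-SCN9A and mCherry did not overlap for 6 of 8 members, against 45.4% of genes tested. The median log2 fold change of the 8 members was 0.07, and that of all genes tested was 0.00. Since the members were chosen with earlier results known, these shares describe them and do not test them as a set. The genes tested were also not matched to the members in level.

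**Figure D2:**
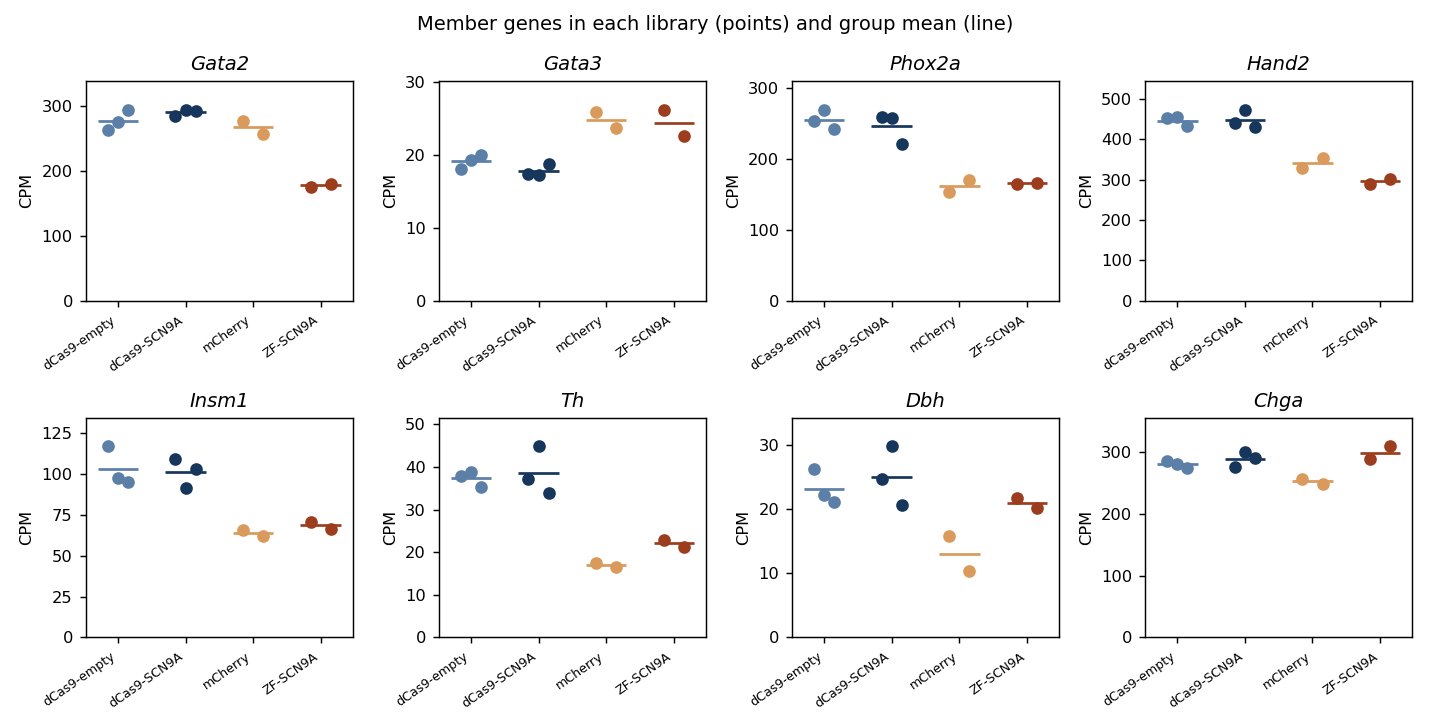
CPM of each member in every library (points) with the group mean (line), each panel starting at 0. In the ZF-SCN9A libraries Gata2 sits at 175 and 180 CPM, under both libraries of its control, mCherry.

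Gata2, a zinc-finger transcription factor of early sympathetic neurons and of blood stem cells, had the smallest p of the members. In the mCherry libraries it was at 277 and 256 CPM, and in the ZF-SCN9A libraries at 175 and 180 CPM. In dCas9-empty it was at 263, 275 and 294 CPM, and in dCas9-SCN9A at 285, 294 and 291 CPM. Both zinc-finger libraries thus lay under both mCherry libraries, with no overlap, and the dCas9 groups overlapped each other. The log2 fold change with ZF-SCN9A was -0.58 ± 0.07 (SE, edgeR adjusted p = 5.11e-14, n = 2 against 2), which leaves 67.0% of the mCherry level with a 95% interval from 61.0% to 73.6%. By p-value Gata2 ranked 28 among the genes tested, and 102 of the 358 genes called lower fell by more. In bulk libraries such as these, fewer cells carrying a transcript and less of it per cell cannot be told apart.

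The size of the Gata2 change also differed between the repressors. Its log2 fold change with dCas9-SCN9A was 0.07 ± 0.05 (SE), which exceeded the zinc-finger change by 0.66 ± 0.09 (SE, 95% limits 0.48 and 0.84, edgeR adjusted p = 1.90e-05). Gata2 was the single member called in this test, 1 of 8 members against 0.907% of 15766 genes. Gata2 was called under all 15 alternatives tried for the zinc finger, with log2 fold changes from -0.63 to -0.52, and under all 20 tried for the difference.

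Gata3, the other GATA factor of the lineage and a known regulator of Th in mouse sympathetic neurons, showed no such change. It was at 25.8 and 23.6 CPM in mCherry and at 26.2 and 22.5 CPM in ZF-SCN9A, so the groups overlapped. Its log2 fold change was -0.00 ± 0.15 (SE), with a 95% interval from -0.29 to 0.29. As Gata2 fell, the ratio of Gata2 to Gata3 on the per kb scale was 5.42 in ZF-SCN9A beside 7.95 in mCherry, and 12.1 in dCas9-SCN9A beside 10.7 in dCas9-empty. The count column used leaves out 15.0% of the reads its strand columns assign to Gata3, where genes overlap, so its level is uncertain.

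Hand2, a basic helix-loop-helix factor required for the noradrenergic program, was the second member that fell with the zinc finger. It was at 329 and 353 CPM in mCherry and at 290 and 300 CPM in ZF-SCN9A, without overlap. The libraries of dCas9-empty were at 452, 454 and 432 CPM and those of dCas9-SCN9A at 439, 473 and 431 CPM, with overlap. Against mCherry the log2 fold change was -0.20 ± 0.06 (SE, 86.9% of mCherry, edgeR adjusted p = 0.0426). This call lay near the threshold and was lost under 7 of 15 alternatives, among them plain library size (adjusted p = 0.0625), DESeq2 (adjusted p = 0.393) and leaving out ZF-SCN9A replicate 1 (adjusted p = 0.522), ZF-SCN9A replicate 2 (adjusted p = 0.225) or mCherry replicate 2 (adjusted p = 0.269).

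The counting of Hand2 was incomplete. The unstranded column leaves out reads that fall in both Hand2 and Hand2os1, which held 27.6% to 39.4% of the Hand2 reads of the strand columns. With the strand columns summed, an alternative chosen after seeing the data, the log2 fold change with the zinc finger was -0.23 (edgeR adjusted p = 0.0098). That sum counts a shared read for Hand2 whichever of both genes it came from. It may thus add reads of Hand2os1, and it does not make the call firmer. Hand2os1 itself was at 84.9 and 87.3 CPM in mCherry and at 90.8 and 79.3 CPM in ZF-SCN9A, with overlap.

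Phox2a, a homeobox factor that activates Dbh and Th, did not pass the test. It was at 154 and 170 CPM in mCherry and 165 and 167 CPM in ZF-SCN9A, a log2 fold change of 0.04 ± 0.07 (SE) with overlapping groups. It ran from 243 to 270 CPM in dCas9-empty and from 222 to 259 CPM in dCas9-SCN9A.

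Insm1, a zinc-finger repressor of neuroendocrine progenitors, stayed under the threshold as well. It was at 65.9 and 62.4 CPM in mCherry and at 71.0 and 66.4 CPM in ZF-SCN9A. These libraries just failed to overlap, with a log2 fold change of 0.11 ± 0.10 (SE, edgeR adjusted p = 0.656). In the dCas9 groups Insm1 ran from 95.2 to 117 CPM and from 91.4 to 109 CPM.

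The enzyme Dbh had the largest fold change of the members, upward with the zinc finger. It was at 15.8 and 10.3 CPM in mCherry and at 21.8 and 20.2 CPM in ZF-SCN9A, without overlap, from raw counts of 109 and 81 against 145 and 95. The log2 fold change was 0.71 ± 0.18 (SE, 163% of mCherry with a 95% interval from 128% to 208%, edgeR adjusted p = 0.0031). The call was lost under 5 of 15 alternatives. Among these were DESeq2 (adjusted p = 0.557), all 10 libraries in 1 fit (edgeR adjusted p = 0.138) and 1 strand column (edgeR adjusted p = 0.0761). The others left out a single library, mCherry replicate 2 (log2 fold change 0.42) or ZF-SCN9A replicate 1 (0.65). In dCas9-empty Dbh was at 26.2, 22.2 and 21.1 CPM and in dCas9-SCN9A at 24.7, 29.8 and 20.6 CPM, so those groups overlapped.

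Th, the rate-limiting enzyme, had a higher mean with the zinc finger but did not pass. It was at 17.6 and 16.6 CPM in mCherry and at 22.9 and 21.3 CPM in ZF-SCN9A, without overlap. The log2 fold change was 0.38 ± 0.16 (SE, 95% interval 0.06 to 0.71), with an unadjusted p of 0.0200 and an edgeR adjusted p of 0.184, and the call was missed under each of the 15 alternatives too. In dCas9-empty it was at 37.8, 38.8 and 35.4 CPM and in dCas9-SCN9A at 37.1, 44.8 and 33.8 CPM. On the per kb scale the ratio of Dbh to Th ran from 0.547 to 0.791 in mCherry and from 0.834 to 0.838 in ZF-SCN9A, and near 0.55 (0.545 and 0.568) in the dCas9 groups.

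Chga rose with the zinc finger by less. It was at 258 and 248 CPM in mCherry and at 289 and 310 CPM in ZF-SCN9A, without overlap. The log2 fold change was 0.25 ± 0.07 (SE, 119% of mCherry, edgeR adjusted p = 0.0067). The call was lost under DESeq2 (adjusted p = 0.228), with all 10 libraries in 1 fit (adjusted p = 0.0530) and without ZF-SCN9A replicate 1 (adjusted p = 0.0580) or 2 (adjusted p = 0.388). In dCas9-empty Chga was at 287, 281 and 275 CPM and in dCas9-SCN9A at 276, 301 and 292 CPM, with overlap.

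**Figure D3:**
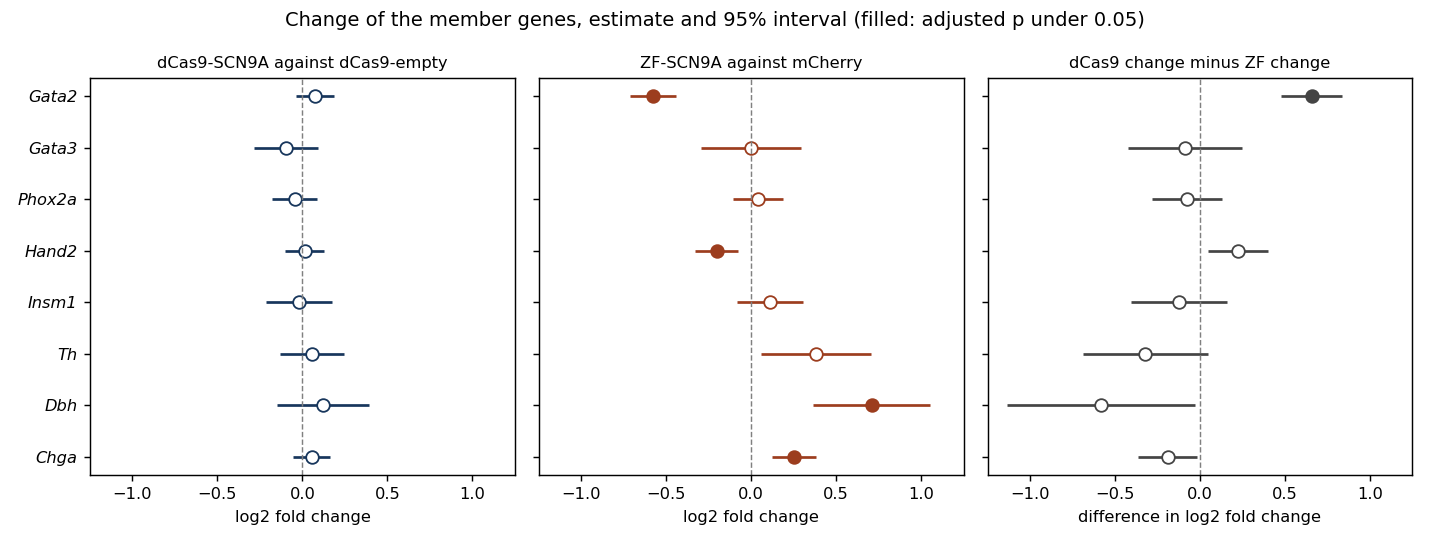
Log2 fold change of each member with its 95% interval in the 2 comparisons, and the dCas9 change minus the ZF change. Filled points had an edgeR adjusted p under 0.05: Gata2, Hand2, Dbh and Chga with the zinc finger, and Gata2 in the difference.

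For Hand2, Dbh and Chga the difference between the repressors missed the adjusted threshold. It was 0.22 ± 0.09 (SE) on the log2 scale for Hand2 (unadjusted p = 0.0159, edgeR adjusted p = 0.301), -0.58 ± 0.26 for Dbh (adjusted p = 0.424) and -0.19 ± 0.09 for Chga (adjusted p = 0.397). Their changes with the zinc finger are therefore not shown to be particular to it. With 2 against 2 libraries an exact two-sided permutation test of 1 gene cannot go below p = 0.333, and with 3 against 3 not below 0.1. In the zinc-finger fit the spread of 7 members was taken wholly from that shared across genes, and for Dbh almost so.

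Beyond the members, 133 other genes were listed for the lineage, its partners, catecholamine handling, granules, cholinergic transmission and the known regulators of Th. With dCas9-SCN9A 101 of them were tested and 0 were called by edgeR, while 10 had an unadjusted p under 0.05 (9.90%, against 10.1% of all genes). The smallest p was that of Tcf4, an E-protein partner of helix-loop-helix factors, with a log2 fold change of -0.33 ± 0.06 (SE, edgeR adjusted p = 0.0958), which passed under 6 of 17 alternatives. With the exon length correction it was -0.18 (adjusted p = 0.567). With ZF-SCN9A 98 were tested, 4 rose and 9 fell (13.3%, against 4.72% of all genes), and 29 had an unadjusted p under 0.05 (29.6%, against 16.2%). Their median log2 fold change was -0.04. These genes too were listed with earlier results known, so their shares are descriptions and not a test of the lists.

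Among the 24 sympathoadrenal transcription factors and receptors, 20 were tested with the zinc finger, of which 4 fell and 2 rose. Besides Gata2 and Hand2, Isl1, a LIM homeobox factor of sympathetic and sensory neurons, fell from 67.9 to 50.4 CPM (log2 fold change -0.41 ± 0.10 (SE), edgeR adjusted p = 0.0047). Sox4, an HMG-box factor of neural progenitors, fell from 452 to 340 CPM (-0.40 ± 0.06, adjusted p = 6.98e-08). Ret, the receptor of GDNF family ligands and at 209.7 CPM per kb the highest of this list in the controls, rose from 862 to 1063 CPM (0.31 ± 0.06, adjusted p = 3.72e-05). Dlk1, a NOTCH ligand-like protein of chromaffin cells, rose from 103 to 149 CPM (0.54 ± 0.08, adjusted p = 3.80e-09). The 15 tested genes of this list that are no members had a median log2 fold change of -0.14.

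Of the 18 partner proteins of GATA and HAND factors, 15 were tested with the zinc finger, 1 rose and 2 fell. Id3, an inhibitor of helix-loop-helix dimers, rose from 14.7 to 24.5 CPM (log2 fold change 0.74 ± 0.17 (SE), edgeR adjusted p = 5.21e-04). Id4, of the same family, fell from 13.7 to 8.05 CPM (-0.73 ± 0.22, adjusted p = 0.0243). Ssbp2, a cofactor of LIM complexes, fell by 0.35 on the log2 scale (adjusted p = 0.0108). Zfpm1, the FOG protein that binds GATA factors and the highest of this list per kb at 78.3 CPM per kb, was at 237 CPM in mCherry and 213.5 CPM in ZF-SCN9A (-0.14 ± 0.07, adjusted p = 0.274).

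No other GATA-named gene was called with the zinc finger. Of 7 listed, 4 were tested, and Gata4, Gata2's paralog of heart and gonad, was at 95.1 CPM in mCherry and 86.0 CPM in ZF-SCN9A (log2 fold change -0.14 ± 0.09 (SE), edgeR adjusted p = 0.479). Gatad2a, a subunit of the NuRD repressor complex and the highest of these genes at 35.1 CPM per kb, had a log2 fold change of -0.03 ± 0.07, and Gatad2b, its paralog with the smallest p of the list, -0.10 ± 0.05 with dCas9-SCN9A (adjusted p = 0.538). Gata5 had no read in any library. Among 15 INSM1 partners and endocrine factors, 11 were tested with the zinc finger and 1 was called: Rest, a repressor of neuronal genes, which fell from 50.6 to 38.1 CPM (-0.41 ± 0.12, adjusted p = 0.0163). Hdac2, the histone deacetylase with the highest level of this list (68.0 CPM per kb), was at 286 CPM in mCherry and 247 CPM in ZF-SCN9A (adjusted p = 0.0630).

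In the 12 genes of catecholamine and tetrahydrobiopterin synthesis, 11 were tested with the zinc finger, 2 rose and 0 fell by edgeR at the adjusted threshold, while 4 had an unadjusted p under 0.05. Beside Dbh, the other was Gch1, the rate-limiting enzyme of tetrahydrobiopterin, the cofactor of TH. Gch1 rose from 193 to 226 CPM (log2 fold change 0.24 ± 0.07 (SE), edgeR adjusted p = 0.0163). Ddc was at 5.81 and 5.85 CPM (0.02 ± 0.30), and Pcbd1, which recycles the cofactor and is the highest of the list at 65.4 CPM per kb, at 40.8 and 45.8 CPM (0.18 ± 0.12, adjusted p = 0.489). The 9 genes of this list that are no members had a median log2 fold change of 0.18 with the zinc finger and -0.02 with dCas9-SCN9A.

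Genes of catecholamine transport and breakdown were mostly silent, with 3 of 12 tested and 0 called by edgeR with the zinc finger, where 1 had an unadjusted p under 0.05. That gene was Slc18a2, the vesicular monoamine transporter VMAT2, at 148 CPM in mCherry and 127 CPM in ZF-SCN9A (log2 fold change -0.21 ± 0.08 (SE), edgeR adjusted p = 0.104). The noradrenaline transporter gene Slc6a2 had at most 2 reads in a library and the dopamine transporter gene Slc6a3 none. Maoa had at most 2 reads in a library and Maob at most 7.

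Of 24 dense core granule genes 18 were tested with the zinc finger, and Chga was the one that rose. Vat1l fell by 0.21 on the log2 scale (edgeR adjusted p = 0.0202). Chgb, the other chromogranin and the highest of this list at 443.4 CPM per kb, was at 672 CPM in mCherry and 705 CPM in ZF-SCN9A (0.08 ± 0.06 (SE), adjusted p = 0.599). The median of the 17 others was 0.04. Among 11 cholinergic genes 6 were tested with the zinc finger and 0 were called by edgeR, while 1 had an unadjusted p under 0.05. Chrna3, the ganglionic nicotinic receptor subunit and the highest of this list at 24.8 CPM per kb, was at 126 and 124 CPM. The smallest p of this list was that of Chrna7, another nicotinic subunit, with dCas9-SCN9A (log2 fold change -0.62 ± 0.15 (SE), unadjusted p = 7.36e-04, edgeR adjusted p = 0.179, called under 2 of 16 alternatives). Chat, which makes acetylcholine, had at most 6 reads in a library and Slc5a7, the choline transporter gene, none.

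Of the 18 genes of the cyclic AMP and AP-1 pathways that regulate Th, all were tested with the zinc finger, 3 fell and 0 rose by edgeR, while 7 had an unadjusted p under 0.05. Egr1, the immediate early factor whose letters stand in the Th and Hand2 windows, fell from 78.3 to 45.2 CPM (log2 fold change -0.78 ± 0.10 (SE), edgeR adjusted p = 2.15e-11). Creb1, which binds the cyclic AMP response element, fell by 0.32 on the log2 scale (adjusted p = 0.0287), and Ep300, its coactivator, fell by 0.23 (adjusted p = 0.0434). Prkar1a, the regulatory subunit of protein kinase A and the highest of this list at 394.3 CPM per kb, had a log2 fold change of -0.12 ± 0.06 (adjusted p = 0.267). Of the 13 genes called here beside the members, Sox4, Dlk1 and Egr1 were called under all 15 alternatives, while Ep300 was lost under 10, Id4 and Creb1 under 7, Rest and Gch1 under 6, Ssbp2 and Vat1l under 5, Isl1 under 4, Id3 under 2 and Ret under 1.

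**Figure D4:**
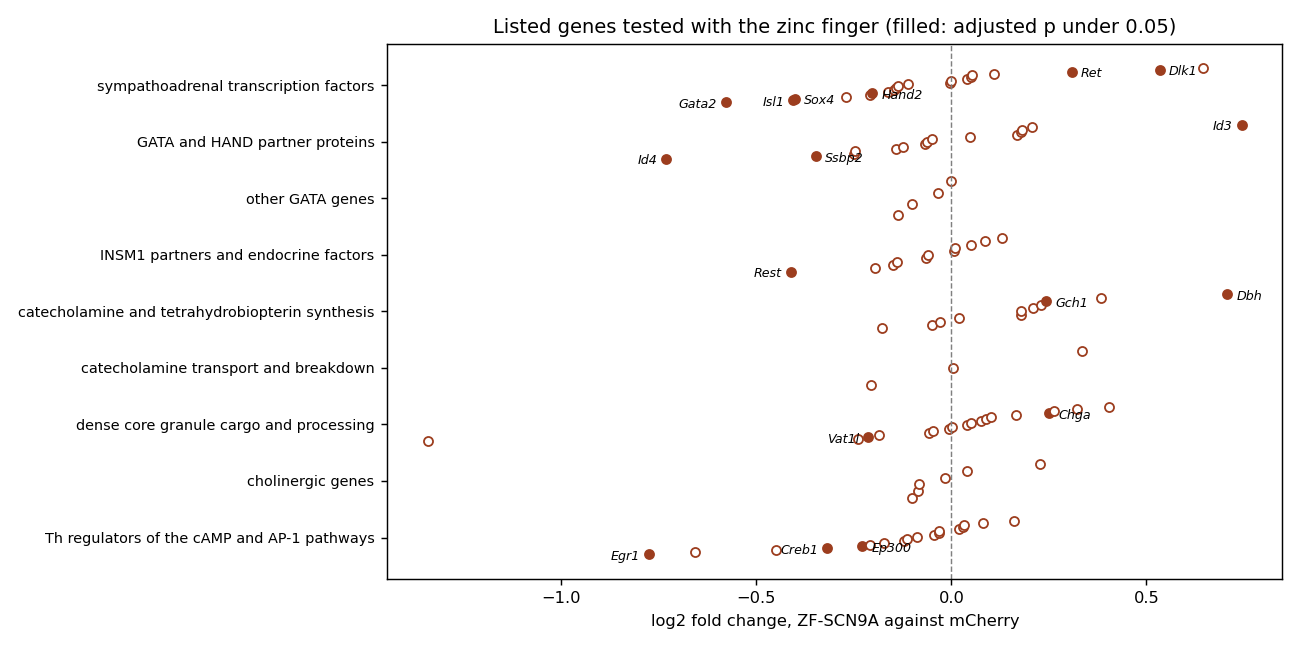
Log2 fold change of each tested gene of the 9 lists with ZF-SCN9A against mCherry, 1 point per gene, with filled and named points for an edgeR adjusted p under 0.05. Gata2, Id4 and Egr1 lie among the largest falls called, and Dbh and Id3 are the largest rises called.

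Markers of other cell types were read in the same libraries. Genes defining adrenal cortex (Cyp11a1, Cyp11b1, Cyp21a1 and Hsd3b1) had no read in any of the 10 libraries, and 1 of 7 cortex markers, Star, could be tested. The summed level of 7 markers of Schwann cell precursors and bridge cells ran from 65.8 to 66.9 CPM in mCherry and from 96.3 to 107 CPM in ZF-SCN9A. Most of it was Htr3a, a serotonin receptor channel of bridge cells, at 42.7 and 73.9 CPM (log2 fold change 0.81 ± 0.11 (SE), edgeR adjusted p = 7.60e-12), while Foxd3 had at most 1 read and Sox10 and S100b at most 4 in any library. Of 8 nociceptive neuron markers Pou4f1 alone could be tested, and it made up most of their summed 17.2 to 21.8 CPM in mCherry and 19.8 to 22.5 CPM in ZF-SCN9A. The 9 mesenchymal and fibroblast markers summed to 16.6 to 18.9 CPM in mCherry and 16.0 to 22.9 CPM in ZF-SCN9A. Of these, 3 were tested. Col1a1 rose from 2.93 to 6.04 CPM (1.07 ± 0.35, adjusted p = 0.0452), a call near the threshold for which no alternatives are given. Within the other arm Col1a1 ran from 1.05 to 4.53 CPM in dCas9-empty and from 1.31 to 5.70 CPM in dCas9-SCN9A. Pdgfra, the highest of these 9 markers, was at 9.35 and 7.71 CPM (-0.22 ± 0.24, adjusted p = 0.739) and Dcn at 2.27 and 2.44 CPM (0.09 ± 0.48, adjusted p = 0.844). The 7 immune and endothelial markers summed to 14.7 to 20.9 CPM in mCherry and to 21.7 to 21.8 CPM in ZF-SCN9A. Most of this was Pecam1, at 15.2 and 18.9 CPM, which was not called (0.31 ± 0.17 (SE), edgeR adjusted p = 0.386). The part of Htr3a and of these sums in the members' changes was not tested.

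The gene closest to a member in its course over the 10 libraries was found among 12833 genes as the one with the smallest root mean square difference of log2(CPM + 0.5), each gene centred on its mean. For Gata2 it was Hspa4l (0.061), for Gata3 E2f6 (0.051), for Phox2a Eif4b (0.042) and for Hand2 Slc25a17 (0.029). For Th it was Nsg2 (0.071), for Dbh Fhit (0.13) and for Chga Eif4ebp1 (0.040). Among the members themselves the nearest pair, Phox2a and Hand2, differed by 0.11, and Th held rank 333 in the order of genes nearest to Dbh. Since all 10 libraries enter, the gap between both arms of the study is part of each course.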

How the data were processed

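The members and the gene lists were chosen with earlier results of these data known. The authors deposited unnormalised counts of reads for every gene, 1 file a library, in the layout of STAR gene counts with 1 unstranded and 2 strand columns, per the file headers and values. The submitters' processing notes name bcl2fastq 2.20, STAR 2.7.3a, DESeq2 and build GRCm38. For annotation release, trimming and counting options: not given in the sources used here. Tests used the unstranded column, which leaves out reads that fall in more than 1 gene. Of 55401 identifiers, 55141 matched a GENCODE M21 symbol. The 4 rows that name no gene held 25.8% to 27.9% of listed reads on group average. They and 4 plasmid rows were left out of library sizes and tests.

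The main test was the quasi-likelihood test of edgeR 4.0.16 (limma 3.58.1, R 4.3.3) with TMM scaling, filterByExpr and a robust prior. Two-sided p-values were adjusted by Benjamini-Hochberg over all genes tested, and genes with an adjusted p under 0.05 were called. dCas9-SCN9A was fitted with dCas9-empty alone and ZF-SCN9A with mCherry alone, and the difference between these changes was a contrast in a fit of the 10 libraries. CPM are counts scaled by TMM over the 10 libraries, and CPM per kb divide them by the union exon length. Tests were checked on simulated counts that gave every gene of a comparison the same spread. That check does not cover genes that differ in spread. Alternatives were DESeq2's size factors or plain library size, no filter or a filter at 1 CPM, DESeq2 1.42.0, limma-voom, all libraries in 1 fit, a replicate block, 1 strand column or both summed, an exon length correction and leaving out each library. Named genes were all members and, from each of 9 lists, the called genes (up to 5), or otherwise that with the smallest p, and the highest per kb in the controls. Each member's nearest gene was also named, except that of Insm1, and some listed genes are not reported here. Gata4, Ddc, Tcf4, Hand2os1, the markers of other cell types and the genes with few or no reads were named outside that rule, after their values were seen. Sequences were read with Python 3.11.15.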

Additional observations from a re-analysis of the deposited data

Results flagged for a closer look

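Gata2 differed between the repressors: its log2 fold change with dCas9-SCN9A minus that with ZF-SCN9A was 0.66 (edgeR adjusted p = 1.90e-05). Of the markers of other cell types this test called Htr3a, with a difference of -0.88 (edgeR adjusted p = 9.54e-06). Its log2 fold change was -0.08 with dCas9-SCN9A and 0.81 with ZF-SCN9A, and no alternatives are given for it. The same test called 2 genes of the lists besides the members. For Egr1 the difference was 0.76 (adjusted p = 3.0e-04), from a log2 fold change of -0.03 with dCas9-SCN9A and -0.78 with ZF-SCN9A, and it was called under all 20 alternatives. For Ret it was -0.42 (adjusted p = 0.0261), from -0.11 and 0.31, and it was lost under 6 of 20 alternatives, each of which left out a library, with an adjusted p of up to 0.298. Control plasmid and depth differ between both arms of the study and cannot be told apart from the repressor in these differences.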

How the results depend on the processing

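Over members and named listed genes, 580 of 681 alternative values kept direction and side of the threshold, 75 lost the call, 8 gained it and 18 reversed. All 18 reversals were of members whose change had not been called. With dCas9-SCN9A, leaving out 1 library gave log2 fold changes from -0.080 to 0.031 for Phox2a, -0.018 to 0.046 for Hand2, -0.072 to 0.089 for Insm1, -0.058 to 0.15 for Th and -0.016 to 0.25 for Dbh. Hand2 was at -0.019 with the exon length correction, and Insm1 at 7.5e-05 with plain library size and 0.022 with 1 strand column. With ZF-SCN9A, Gata3 was at 0.011 with plain library size, 0.0037 with limma-voom and -0.12 to 0.083 without 1 library, and Phox2a at -0.030 to 0.12. The Gata3 difference was 0.049 with 1 strand column and -0.17 to 0.027 without 1 library.

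With dCas9-SCN9A 6 genes were called, against 172 with no filter, 57 with DESeq2, 29 with all 10 libraries in 1 fit, 13 with 1 strand column, 2 with the exon length correction and from 1 to 34 without 1 library. With ZF-SCN9A 609 were called, against 115, 348 and 283 with DESeq2, all 10 libraries and 1 strand column, and from 201 to 787 without 1 library. The members called there, 4, became 1 with DESeq2, 1 with all 10 libraries, 2 with 1 strand column and from 1 to 4 without 1 library. The difference, with 143 genes, gave 274 with no filter, 89 with limma-voom and from 71 to 241 without 1 library. The causes of these shifts were not tested.

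Whether replicate numbers pair the libraries is not settled. Same-numbered dCas9 libraries correlated, in deviations from their group means, at 0.26, 0.20 and 0.042, and ZF libraries at 0.068. With 2 libraries a group the ZF deviations mirror each other, so that value cannot decide. The dCas9-SCN9A libraries each correlated best with their own number, but dCas9-empty replicate 3 did so with dCas9-SCN9A replicate 2 (0.11). With a replicate block, 262 genes were called with dCas9-SCN9A (6 without it) and 429 in the difference, and no member's call changed. Among the listed genes it called Tcf4 (adjusted p = 0.0011) and Chrna7 (adjusted p = 0.0220) with dCas9-SCN9A, both also called with no filter, and lost Ep300 with ZF-SCN9A. Counts of 81 to 145 for Dbh in the zinc-finger arm limit its precision, and 2 libraries a group limit every zinc-finger result.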
